A study of Homo sapiens with 2 samples.

Results

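Amino acid transporter genes were compared between 2 arrays of cultured glioma cells. The group was defined by name, as every probe set whose single gene symbol belongs to the solute carrier families SLC1, SLC3, SLC6, SLC7, SLC36, SLC38 or SLC43, together with SLC16A10. This gave 141 of the 54675 probe sets on the array and 57 of 19775 genes. The rule used no measured value. Both samples are labelled as U87, an established human glioblastoma line grown in DMEM with serum and transfected with a lipid reagent. The control sample carried a non-target siRNA. The second sample carried an siRNA directed at FOXM1, which encodes a forkhead factor of the cell division cycle, and RNA was taken after 48 hours in both. Each group was 1 sample on 1 array, so there is no replicate check, no SD between samples and no test between conditions.

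Most amino acids cross membranes through carriers, and a cell's set of carriers sets what it can take up, exchange and release. SLC3 members are heavy chains that bring SLC7 light chains to the surface, where the pair works as an exchanger of large neutral, basic or acidic amino acids. SLC1 members import glutamate or exchange small neutral amino acids, SLC38 members import glutamine and alanine with sodium or act at the lysosome, and SLC6 members carry neurotransmitters, osmolytes and neutral amino acids. SLC36 and SLC43 members and SLC16A10 move amino acids with protons or by facilitated diffusion. In glioma, cystine import with glutamate release through SLC7A11 and leucine import through SLC7A5 are well known, and several of these genes are known targets of ATF4, the transcription factor of the amino acid response.

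Signals are MAS5 intensities on a linear scale in arbitrary units. A signal counted as detected above a floor, the 90th percentile of 135 probe sets for olfactory receptor genes, which was 60.8 on the non-target array and 77.7 on the FOXM1 siRNA array. Differences are log2 values of the FOXM1 siRNA array minus the non-target array, with lower signals raised to the floor, and the probe set with the brightest mean signal stands for its gene. A gene above 1 floor only has a bound in place of a fold, written "at least" or "at most". The only measure of error was the scatter between 2 probe sets for the same gene. It came to an SD of 0.46 per probe set in log2 difference over 5476 genes, and of 0.44 over 13 of the transporter genes. Both probe sets of a gene were read on the same arrays, so this scatter leaves out differences between cultures, RNA samples and arrays. The number of arrays limits the precision.

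Some values of the arrays as a whole stand beside every result. FOXM1 read 1520 on the non-target array and 1343 on the FOXM1 siRNA array, a log2 difference of -0.18. This is 1.13-fold, inside the scatter of 0.46, so no knockdown was detectable in the target transcript by this probe set. It is the 1 that stands for the gene, and is of a kind that can match several transcripts. The FOXM1 value gives no check of the labels, and the arrays are named here as labelled. At the 9p21 locus, which U87 cells are known to lack, CDKN2A read 3467 and 421, above both floors, CDKN2B 350 and 31.8, and MTAP 619 and 76.3, the last 2 below the floor on the FOXM1 siRNA array. All 3 genes on the non-target array, and CDKN2A on the other, go against the cell line label, and an effect of the siRNA and a difference between the cells cannot be told apart in any value below. Of 15 glial and glioblastoma markers, 11 lay above the floor on the non-target array and 10 on the other, with summed signals of 34761 and 106023, and GFAP and AQP4 lay below both floors. Of 9 fibroblast markers, 6 and 7 lay above the floor (summed signals 2200 and 22827). Of 10 epithelial markers it was 5 and 5 (12906 and 1291), and of 10 neuronal markers 5 and 5 (8743 and 14055). Of 8 myeloid and lymphoid markers it was 1 and 3 (260 and 373), with PTPRC below both floors, and of 7 endothelial markers 1 and 3 (165 and 561), with CDH5 below both. The 3' to 5' signal ratio of ACTB was 6.79 on the non-target array and 4.21 on the other. The part of these differences in the transporter values was not tested.

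The share of transporter genes that differed was close to that of the whole array, while single carriers differed widely. Of the 57 genes, 28 lay above both floors, 9 above 1 floor and 20 below both. SLC43A3, SLC1A1, SLC38A6 and SLC6A17 were at least 2-fold higher on the FOXM1 siRNA array, and SLC16A10, SLC7A2, SLC36A1, SLC43A1 and SLC7A5 at least 2-fold lower. These are 4 and 5 of 37 genes above at least 1 floor, or 10.8% and 13.5%, where 16.0% of all such genes were higher and 15.4% lower. In RNA of bulk cultures, fewer cells that express a carrier and less of its RNA per cell cannot be told apart. Among genes above both floors, 3 of 28 transporter genes were higher and 3 lower, 10.7% each, against 15.3% and 14.8% of all genes. The 319 other SLC genes on the array held 33 higher and 32 lower genes among 224 above at least 1 floor. The median log2 difference of the 28 genes was 0.12, with 14 values on each side of 0, beside a median of -0.03 over 11395 genes above both floors. With the hybridisation controls of the arrays set equal, 3 transporter genes were higher and 9 lower, and the medians moved to -0.19 for them and -0.34 for all genes. With loess scaling the counts were 6 and 4.

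**Figure D1:**
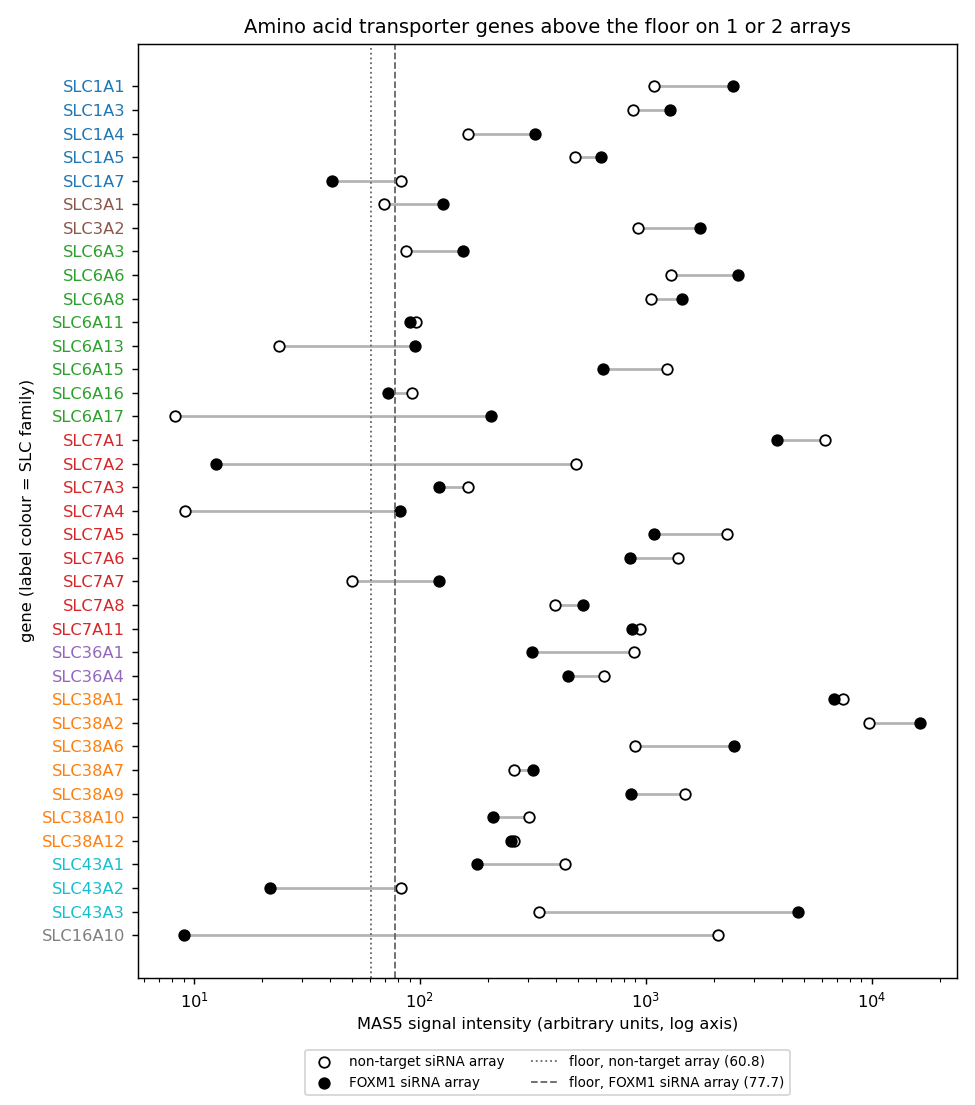
MAS5 signal intensity (arbitrary units, log axis) of the 37 transporter genes above at least 1 floor, 1 probe set per gene, on the non-target siRNA array (open circles) and the FOXM1 siRNA array (filled circles), with the floor of each array as a vertical line (60.8 dotted, 77.7 dashed). The widest gaps with both points above the floors belong to SLC43A3, SLC36A1 and SLC38A6, and SLC16A10 and SLC7A2 drop from 2092 and 492 to below the floor.

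Subunits of the surface exchangers, which pair a heavy with a light chain, lay on both sides of 0. SLC3A2, the heavy chain known as 4F2hc or CD98, read 926 on the non-target array and 1732 on the FOXM1 siRNA array, a log2 difference of 0.90. SLC7A5, the LAT1 light chain that carries leucine and other large neutral amino acids with it, read 2278 and 1083. It was 2.10-fold lower on the FOXM1 siRNA array, so this heavy chain and its main light chain lay on opposite sides of 0. SLC7A6, the y+LAT2 light chain for basic against neutral amino acids, read 1390 and 852, and its 3 probe sets gave log2 differences of -0.92 to -0.49. SLC7A8, the LAT2 light chain, read 397 and 527 (0.41), and a second probe set, at 250 and 655, gave 1.39. The other detected probe set, at 89.5 and 71.4, lay above the floor on the non-target array alone and gave a bound of at most -0.20, so its probe sets point both ways. SLC7A11, the xCT light chain of the cystine and glutamate exchanger, read 942 and 865, and its 3 probe sets spread from -0.12 to 0.60, on both sides of 0. SLC7A7, the y+LAT1 light chain, lay below the floor on the non-target array and read 121 on the other, with a bound just short of 2-fold. SLC3A1, the rBAT heavy chain of kidney and gut, read 69.0 and 127, a log2 difference of 0.88 close to the floors. Its light chain partner SLC7A9, the small neutral amino acid exchanger SLC7A10 and SLC7A13 lay below both floors. Of the 5 light chains above at least 1 floor, 1 was 2-fold lower and none higher. Over all genes above at least 1 floor, 15.4% were lower and 16.0% higher. The SLC7A5 difference was -0.95 with loess scaling, under 2-fold, and both SLC7A5 and SLC3A2 rested on 1 probe set each, of a kind that can match several transcripts.

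The starts of these genes are shown because SLC3A2 and SLC7A5 lay on opposite sides of 0 and because 3 of the lower genes share letters there. RefSeq windows of 300 bases, from 250 before to 50 after a transcription start (build GRCh38.p14), were found for 43 of the 57 genes, 65 windows in all. Both strands were searched for TGATGNAA, the core of the amino acid response element, TGACNNNGC, the core of the antioxidant response element, CACGTG, the E-box of MYC and related factors, and TAAACA, a forkhead core. In the sequences below, written 5' to 3' on the gene's strand, capitals mark every match to any of the 4 motifs.
SLC7A5 (chr16:87869458-87869757, minus strand): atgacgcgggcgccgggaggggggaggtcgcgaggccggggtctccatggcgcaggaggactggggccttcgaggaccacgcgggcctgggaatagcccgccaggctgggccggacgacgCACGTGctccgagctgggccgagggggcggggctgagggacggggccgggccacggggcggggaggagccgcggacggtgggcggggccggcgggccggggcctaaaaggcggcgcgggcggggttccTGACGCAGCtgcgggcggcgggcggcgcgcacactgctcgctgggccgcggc
SLC3A2 (chr11:62881449-62881748, plus strand): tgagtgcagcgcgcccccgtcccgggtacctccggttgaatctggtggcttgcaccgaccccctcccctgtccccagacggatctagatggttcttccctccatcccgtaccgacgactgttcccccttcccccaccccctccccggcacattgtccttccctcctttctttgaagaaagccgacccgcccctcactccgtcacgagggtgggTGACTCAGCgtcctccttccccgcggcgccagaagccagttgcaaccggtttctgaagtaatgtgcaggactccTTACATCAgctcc
SLC43A1 (chr11:57515653-57515952, minus strand): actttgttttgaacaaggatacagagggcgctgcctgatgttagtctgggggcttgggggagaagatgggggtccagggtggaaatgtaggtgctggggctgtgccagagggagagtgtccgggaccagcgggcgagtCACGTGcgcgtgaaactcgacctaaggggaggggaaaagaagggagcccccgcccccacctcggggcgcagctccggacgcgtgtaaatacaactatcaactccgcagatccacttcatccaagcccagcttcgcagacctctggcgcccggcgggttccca
SLC36A1 (chr5:151447353-151447652, plus strand): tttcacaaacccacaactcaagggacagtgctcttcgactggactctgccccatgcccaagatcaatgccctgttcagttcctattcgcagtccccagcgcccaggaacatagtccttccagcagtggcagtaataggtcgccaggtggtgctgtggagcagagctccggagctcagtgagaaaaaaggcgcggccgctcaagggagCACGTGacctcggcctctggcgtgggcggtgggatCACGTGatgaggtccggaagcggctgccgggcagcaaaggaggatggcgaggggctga

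The E-box letters stood in these windows of SLC7A5 and SLC43A1 once and in that of SLC36A1 at 2 places. The other window of SLC43A1, at another start, held the forkhead core once and no E-box. The other window of SLC36A1, the other windows of SLC3A2 and the window of SLC16A10 held none of the 4 motifs. Counted by gene, the E-box stood in 3 of 4 lower genes with a window, 6 of 21 genes under 2-fold and 1 of 15 below both floors. It stood in 10 of all 43, against 8.77% of all genes in the table, detected here or not. The windows printed were chosen after the matches were seen. The higher genes SLC1A1, SLC38A6 and SLC6A17 had a window each with no match to any motif. Over all transporter windows, 15.4% held the E-box, against 7.26% of all 35116 windows in the table. The amino acid response core stood in 9.23% of transporter windows and 3.62% of all, in SLC1A3, SLC1A4, SLC1A5, SLC38A1, SLC3A2 and SLC7A1, none of which differed by 2-fold. The antioxidant core stood in 10.8% of transporter windows against 13.3% of all, and the forkhead core in 16.9% against 12.3%. These shares describe letters in the windows, not sites of binding, and several windows can belong to one gene.

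**Figure D2:**
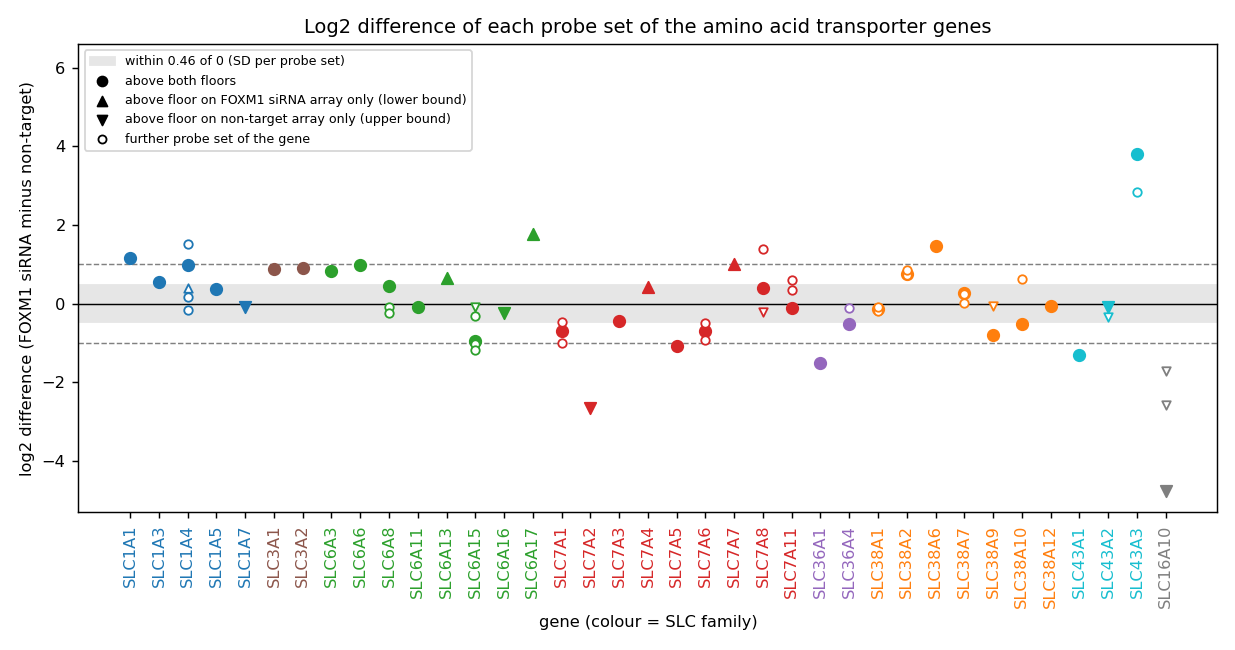
Log2 difference (FOXM1 siRNA minus non-target) of each probe set above at least 1 floor that gave a difference or a bound, by gene and coloured by SLC family. Filled symbols are the probe set that represents the gene, circles lie above both floors and triangles are bounds. The grey band is 0.46 on either side of 0, dashed lines mark 2-fold, and the 2 probe sets of SLC43A3 and the 3 of SLC16A10 lie beyond the dashed lines while those of SLC1A4 spread from -0.15 to 1.52.

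Of the 5 genes grouped as carriers of basic amino acids, 4 lay above at least 1 floor, 1 of them at least 2-fold lower and none higher. Over all such genes on the array 15.4% were lower and 16.0% higher, so 1 gene does not set the group apart. SLC7A1, the CAT1 carrier for arginine and lysine found in most cells, read 6189 on the non-target array and 3792 on the FOXM1 siRNA array, and its 3 probe sets above both floors gave -1.01, -0.71 and -0.47. All 3 lay below 0 and 1 of them just past 2-fold, so the gene was under 2-fold by its main probe set. SLC7A2, the CAT2 carrier that supplies arginine to activated cells, read 492 and 12.5, the second signal below the floor. It was at least 6.32-fold lower on the FOXM1 siRNA array in that probe set, while 2 further probe sets lay below both floors and gave no value, so that the median over its probe sets, 0.35, is only the log2 ratio of the floors. SLC7A3, the CAT3 carrier, read 163 and 121 (-0.44). SLC7A4, a relative with no settled transport activity, read 9.10 and 81.7, barely above the floor of the second array, and SLC7A14 lay below both floors. Over the SLC7 family as a whole, 5 of the 6 genes above both floors had negative differences in each of the 5 scalings, with a median of -0.57 as deposited. Median centring and the hybridisation controls lower every such difference, so they could not turn a negative value positive. Over all genes above both floors, 5875 of 11395 lay below 0. Taking the median over probe sets instead, 4 of the 6 SLC7 genes were negative.

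SLC1 genes had positive differences where they were measured on both arrays. Of the 7 genes, 5 lay above at least 1 floor. Of these, 1 was at least 2-fold higher, where 16.0% of all genes above at least 1 floor were. SLC1A1, the neuronal and epithelial glutamate carrier EAAT3, which also brings in cysteine, read 1091 and 2436. It was 2.23-fold higher on the FOXM1 siRNA array, with its other probe set below both floors. SLC1A3, the astrocyte glutamate carrier known as GLAST or EAAT1, read 874 and 1278, a log2 difference of 0.55. SLC1A2, the main astrocyte glutamate carrier GLT-1, lay below both floors in each of its 6 probe sets, so that of the pair of carriers that clear glutamate in the brain only GLAST was detected. SLC1A5, the glutamine exchanger ASCT2, read 486 and 634 (0.38), inside the scatter of 0.46. SLC1A4, the serine and alanine exchanger ASCT1, read 163 and 324 in its main probe set (0.99), but its 4 probe sets above both floors ran from -0.15 to 1.52. SLC1A7, a retinal carrier, read 82.2 and 40.6, above the floor on the non-target array alone with a bound of -0.08, and SLC1A6, the carrier of Purkinje cells, lay below both. All 4 SLC1 genes above both floors had positive differences in each of the 5 scalings, with a median of 0.77 as deposited. Over all genes above both floors, 5520 of 11395 lay above 0 as deposited. SLC1A1 was under 2-fold, at 0.85, with the hybridisation controls set equal, and at 0.76 with the median of its probe sets, 1 of which was below both floors.

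Among the SLC6 genes most neurotransmitter carriers were not detected. SLC6A2 and SLC6A4, for noradrenaline and serotonin, SLC6A5 and SLC6A9, for glycine, SLC6A7, for proline, and SLC6A12, for betaine and GABA, lay below both floors. SLC6A3, the dopamine carrier, read 86.7 and 155 and SLC6A11, a glial GABA carrier, 96.1 and 90.3, all 4 signals close to the floors. SLC6A13, a further GABA carrier, read 23.8 and 95.3, with a bound of 0.65. The osmolyte and energy carriers were well above the floors. SLC6A6, which imports taurine, read 1295 and 2562, a log2 difference of 0.98 in 1 probe set, while its other 4 probe sets lay below both floors. SLC6A8, which imports creatine, read 1056 and 1448 in its main probe set (0.46), and its 3 probe sets ran from -0.23 to 0.46. A further 3 probe sets carry both its symbol and that of a related pseudogene and were left out by the rule. SLC6A15, a sodium-dependent carrier for branched-chain amino acids and proline in neurons, had 4 probe sets above both floors, at 1238 and 646, 1081 and 529, 943 and 418, and 335 and 270. They gave -0.94, -1.03, -1.17 and -0.31, all below 0, with the main probe set just short of 2-fold. SLC6A17, a vesicle carrier for neutral amino acids in neurons, read 8.25 and 207. It was at least 3.40-fold higher on the FOXM1 siRNA array, where a floor 2 times as high gave a bound of 0.77, under 2-fold, and its other probe set lay below both floors. SLC6A16, an orphan member, read 91.9 and 72.6, and SLC6A14, SLC6A18, SLC6A19 and SLC6A20, neutral amino acid and proline carriers mainly of epithelia, lay below both floors.

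Of the 11 SLC38 genes, 7 lay above both floors, and 1 of them, SLC38A6, was at least 2-fold higher and none lower. Over all genes above both floors, 15.3% were higher and 14.8% lower. SLC38A1, the SNAT1 carrier, read 7439 and 6778, and its 3 probe sets above both floors gave -0.19 to -0.07. SLC38A2, the SNAT2 carrier, which is known to be induced when amino acids run short, read 9764 and 16396, and its 3 probe sets agreed closely at 0.73, 0.75 and 0.87. That is more than the scatter of 0.46 and less than 2-fold, although all 3 probe sets are of kinds that can match several transcripts. SLC38A6, a less studied member, read 891 and 2468 in its 1 probe set. It was 2.77-fold higher on the FOXM1 siRNA array and kept more than 2-fold in each of the 5 scalings, with 1.17 as the lowest value. SLC38A9, the lysosomal arginine sensor that reports to mTORC1, read 1497 and 860 (-0.80), and passed 2-fold with the hybridisation controls set equal (-1.10). Its other probe set, at 80.7 and 77.5, lay above the floor on the non-target array alone, with a bound of -0.05. SLC38A7, a lysosomal glutamine exporter, read 262 and 317, and its 3 probe sets lay at 0.01 to 0.28. SLC38A10 read 303 and 211 in one probe set and 200 and 307 in another, with log2 differences of -0.52 and 0.62 that point in opposite directions. SLC38A12 read 261 and 252 (-0.05). SLC38A3 and SLC38A5, the glutamine carriers of system N, SLC38A4, a liver carrier, and SLC38A11 lay below both floors. The SLC38 median of -0.05 over 7 genes, 3 of them above 0, was 0.26 when the median over probe sets was taken. That setting put SLC38A10 at 0.35, the log2 ratio of the floors, since 4 of its 7 probe sets lay below both.

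SLC16A10 and SLC43A3 were both at least 2-fold different between the arrays. SLC43A3, which is now known as a purine nucleobase carrier although its family carries amino acids, read 337 on the non-target array and 4702 on the FOXM1 siRNA array. It was 13.9-fold higher there, and its second probe set, at 95.7 and 686, was 7.17-fold higher. SLC43A1, the LAT3 carrier of branched-chain amino acids and phenylalanine, read 439 and 178. It was 2.46-fold lower, so that the SLC43 relatives lay on opposite sides. SLC43A2, the LAT4 carrier, read 82.5 and 21.8 and, in its other probe set, 97.9 and 12.0, above the floor on the non-target array alone, with bounds of -0.09 and -0.33. SLC16A10, the TAT1 carrier that exports tyrosine, tryptophan and phenylalanine, read 2092 and 9.01. Its other probe sets read 463 and 8.34, and 254 and 7.67, so that all 3 lay above the floor on the non-target array and below it on the FOXM1 siRNA array, with bounds of at least 26.9-fold, 5.95-fold and 3.27-fold lower. SLC36A1, the lysosomal and intestinal proton-coupled carrier PAT1 of small amino acids, read 891 and 314. It was 2.84-fold lower, and its other probe set, at 73.4 and 52.2, lay above the floor on the non-target array alone. SLC36A4, a carrier of proline and tryptophan, read 650 and 454, and its 2 probe sets gave -0.52 and -0.12. With the median of its probe sets SLC36A1 was at -0.71, under 2-fold. When probe sets ending in _x_at or _s_at were dropped, SLC43A3 had no probe set left, and SLC16A10 had a bound of -1.80 on the log2 scale.

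Some of these genes are neighbours in the genome. In the RefSeq gene order of chromosome 11, SLC43A3 and SLC43A1 are separated by 1 protein-coding gene, RTN4RL2, which encodes a receptor for myelin inhibitors and lay below both floors. Their log2 differences were 3.80 and -1.30. SLC38A1, SLC38A2 and SLC38A4 follow each other on chromosome 12 with no protein-coding gene between them. The first read -0.13 and the second 0.75 as a log2 difference, and SLC38A4 lay below both floors. SLC6A19 and SLC6A18 on chromosome 5, with no protein-coding gene between them, lay below both floors.

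The genes that make and break down amino acids were compared with the carriers through lists of named genes, read against the 16.0% of all genes above at least 1 floor that were higher and the 15.4% that were lower. Of 18 measured genes of amino acid synthesis, 1 was higher and 3 lower by 2-fold or more. The 16 above both floors had a median log2 difference of -0.49. CBS, which makes cystathionine from homocysteine and serine, read 1178 and 253, 4.65-fold lower. GLUL, glutamine synthetase, read 11315 and 3975, 2.85-fold lower, and PYCR3, an enzyme of proline synthesis, was at least 2.67-fold lower. ASL, an enzyme of arginine synthesis, was 2.99-fold higher. ASNS, asparagine synthetase, read 9832 and 5061 (-0.96), and the serine synthesis enzyme PHGDH 3457 and 1813 (-0.93), both short of 2-fold. Of 21 breakdown genes, 19 lay above at least 1 floor, and 6 were higher and 4 lower (median -0.33). KYNU and TDO2, enzymes of tryptophan breakdown, were 16.4-fold and 9.89-fold higher, BCAT1, the cytosolic branched-chain aminotransferase, 2.27-fold and SAT1, of polyamine turnover, 2.22-fold. GLDC, of the glycine cleavage system, was 16.6-fold lower, BCAT2, the mitochondrial branched-chain aminotransferase, 3.53-fold, GCSH, a partner of GLDC, 2.42-fold and ARG2, a mitochondrial arginase, 2.09-fold. BCAT1 and BCAT2, which act on the same amino acids, thus lay on opposite sides. With the hybridisation controls set equal the breakdown list held 2 higher genes.

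Of the 18 listed genes of the amino acid response above both floors, 12 had differences above 0 and 6 below. Of 19 measured, 9 passed 2-fold on the FOXM1 siRNA array in the higher direction and none in the lower, and the 18 above both floors had a median of 0.87. All 9 lay above both floors, where 15.3% of all genes were higher and 14.8% lower. DDIT3 and PPP1R15A, which act in the stress response to misfolded protein, were 6.25-fold and 5.21-fold higher, the stress protein NUPR1 4.98-fold and the transcription factor CEBPB 4.13-fold. ATF4 itself read 21744 and 14584, a log2 difference of -0.58, and TRIB3, its feedback inhibitor, -0.32, both among the 6 below 0. ASNS, at -0.96, was counted with the synthesis genes. The list also holds genes of other stress responses, so its counts do not measure the amino acid response alone. When probe sets ending in _x_at or _s_at were dropped, 5 of the list were higher. Of 17 aminoacyl-tRNA synthetases, which load amino acids onto tRNA, 2 were lower and none higher (median -0.28), EPRS1 by 2.25-fold and YARS1 by 2.05-fold. The count of lower synthetases was 0 when probe sets ending in _x_at or _s_at were dropped, 1 with loess scaling or the median over probe sets, and 4 with the hybridisation controls set equal.

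Of 27 measured genes of the mTORC1 pathway, through which cells sense amino acids, 26 lay above at least 1 floor, and 3 were higher and 7 lower (median 0.02). The shares over all genes above at least 1 floor, 16.0% higher and 15.4% lower, stand beside this list and those that follow. With the hybridisation controls set equal 1 gene of the mTORC1 list was higher, and 4 were lower when probe sets ending in _x_at or _s_at were dropped. TSC2, an inhibitor of the pathway, was at least 4.66-fold lower, the mTOR partner MLST8 4.01-fold, CASTOR2 3.78-fold and SESN1, of the sestrin leucine sensors, 3.65-fold. The arginine sensor gene CASTOR1, a relative of CASTOR2, was at least 3.26-fold higher, FNIP2, a partner of folliculin, 2.33-fold and the small GTPase gene RRAGA 2.06-fold. Of 11 genes of glutathione synthesis and cystine use, which draw on the cystine that SLC7A11 brings in, 10 lay above both floors. Of these, 2 were higher and none lower (median 0.24). CHAC1, which degrades glutathione, was 2.91-fold and TXNRD1, thioredoxin reductase, 2.28-fold higher. CHAC1 is also counted among the higher genes of the amino acid response, and SESN2 stands in the response and mTORC1 lists, so these lists are not independent. GCLC and GCLM, the subunits of the rate-limiting ligase, lay at 0.30 and 0.08. Of 17 other amino acid carriers, 12 lay above at least 1 floor, and none was higher and 2 lower (median -0.03). They were the mitochondrial ornithine carrier SLC25A15, 3.19-fold, and the aspartate and glutamate carrier SLC25A13, 2.63-fold. Of 14 glucose and lactate carriers and their partners, 12 lay above at least 1 floor, and 4 were higher and 3 lower (median 0.54). The higher count was 2 with the hybridisation controls set equal or when probe sets ending in _x_at or _s_at were dropped. SLC16A7, the pyruvate and lactate carrier MCT2, was 7.48-fold, SLC2A3 3.64-fold, SLC2A1 2.42-fold and BSG, a chaperone of lactate carriers, 2.35-fold higher. EMB, a chaperone related to BSG, was 44.3-fold, the glucose carrier genes SLC2A12 8.14-fold and SLC2A10 at least 2.38-fold lower. EMB and SLC2A12 read 79.5 and 79.2 on the FOXM1 siRNA array, barely above its floor of 77.7, so the floor limits both folds.

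**Figure D3:**
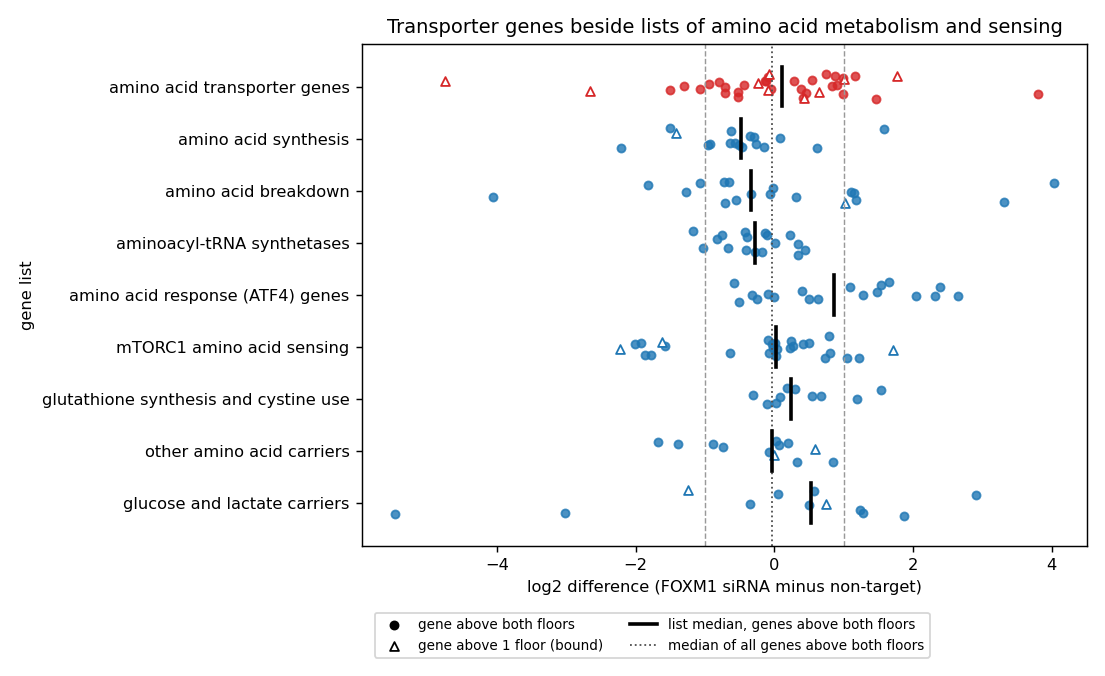
Log2 difference (FOXM1 siRNA minus non-target) of each gene above a floor that gave a difference or a bound. The transporter group is red, and 8 lists of amino acid metabolism, sensing and nutrient carriers are blue. Circles lie above both floors, triangles are bounds and thick bars are list medians over genes above both floors. The dotted line is the median of all genes above both floors (-0.03), and dashed lines mark 2-fold. The amino acid response list lies to the right (median 0.87), synthesis genes to the left (median -0.49), and the transporter genes spread on both sides of 0 around a median of 0.12.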

How the data were processed

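The authors deposited 1 intensity on a linear scale for each probe set on each array, made with MAS5 per the submitters' processing notes. Its version is not given in the sources read. Without the lowest and highest 2%, the mean intensity of either array was 500.07, so the arrays had been scaled to a common level, which assumes equal mean signal. No detection calls were used, and no genome build underlies the values. Labelled cRNA was made with a 3' IVT kit, per the labels' protocols, and so reports mainly transcript 3' ends.

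Probe sets were named through the platform table (41097 of 54675 with 1 symbol), with symbols updated by gene ID through the GRCh38.p14 RefSeq table. Intensities were floored as described in the results, and a 2-fold difference was the threshold. Every member gene above a floor is named with its values; from each list, up to 4 genes per direction are named, with ATF4, ASNS and FOXM1; BCAT1 and BCAT2, PHGDH, TRIB3, GCLC and GCLM were chosen for comment after their values were seen. Members, lists and alternatives were chosen with earlier results of these data known. Family members without a probe set of their own symbol were not analysed here. The calculation was tested on simulated data. Python 3.11.15, numpy 2.4.6, pandas 2.3.3, R 4.3.3 and limma 3.58.1 (quantile and loess scaling, span 0.3) were used. The alternatives were 4 other scalings, 3 other floors, a pseudocount of 50, the median of probe sets, leaving out probe sets ending in _x_at or _s_at, and a 1.5-fold threshold.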

Additional observations from a re-analysis of the deposited data

How the results depend on the processing

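The count of 4 higher transporter genes became 7 with no floor and 12 at a 1.5-fold threshold, and stayed between 3 and 6 in the other alternatives. The count of 5 lower genes became 9 with the hybridisation controls set equal, 3 when the median over probe sets was taken and 9 at a 1.5-fold threshold, and stayed between 4 and 7 otherwise. Over all genes, 2218 higher and 2132 lower became 1567 and 3200 with the hybridisation controls set equal and 2657 and 2655 with no floor. The transporter median changed sign with median centring (-0.04), a common floor (-0.05), the hybridisation controls (-0.19) and without probe sets ending in _x_at or _s_at (-0.12), so its direction depends on these settings. Of the recomputed gene differences, 326 moved by less than the scatter of 0.46 per probe set, 24 moved further and 1 reversed: SLC7A2, at 0.35 with the median of probe sets, where 2 of its 3 probe sets lay below both floors. Part of the 326 was fixed in advance. For a gene above both floors, median centring and the hybridisation controls shift the difference by a constant smaller than 0.46. Using no floor leaves such a difference unchanged, so the count is no measure of stability. Of 176 recomputed list counts, 149 stayed within 1.5 times. Beside those given above, with the hybridisation controls set equal 5 synthesis genes were lower, 1 glutathione gene higher and 4 other amino acid carriers lower. With median centring 5 synthesis genes were lower and 3 breakdown genes higher. With the median over probe sets 2 breakdown genes were lower and 1 glutathione gene higher. When probe sets ending in _x_at or _s_at were dropped 2 breakdown genes were lower and 1 other carrier higher, as with no floor for the latter. No paired analysis was possible because each group holds 1 array. With 1 array per group, signals near the floors limit every fold of a gene detected on 1 array to a bound.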
